A study of Mus musculus with 6 samples.

Results

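Mitochondrial ribosomal protein genes, 77 of the 19296 genes measured, are described here in Dicer mutant ureteric bud cells. They are all genes whose symbol is Mrpl or Mrps followed by a number and that had a probe set of their own on the array, 48 for the large subunit and 29 for the small. Of 78 protein-coding RefSeq genes that match, Mrpl53 was left out because its probe set is shared with another gene. Cells came from E15.5 mouse kidneys, were sorted for YFP after trypsin treatment, and were profiled on Affymetrix whole-transcript arrays. The Dicer mutant group (3 arrays) had the genotype Dicerc/-; Hoxb7Cre; Rosa26YFP, which pairs a conditional with a null Dicer allele and drives Cre in the ureteric bud. The control group (3 arrays) is given as wild type, although its cells were also sorted for YFP, so whether it carried Cre and the reporter is not stated. Strain background was mixed in both groups, and pooling of embryos is not given. The null allele is present in every cell of the mutant, and effects of Cre cannot be told apart from those of the Dicer genotype.

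Mitochondria keep a small genome whose protein genes all encode subunits of the respiratory chain and ATP synthase. Their messages are read inside the organelle by a ribosome of its own, whose rRNAs come from mitochondrial DNA and whose proteins are all encoded in the nucleus, made in the cytosol and imported. The small subunit binds and decodes the mRNA, and the large subunit forms peptide bonds and releases the chain at the inner membrane. Some of these proteins have bacterial homologues and others are found only in mitochondrial ribosomes. Collecting duct cells, into which the ureteric bud develops, use mitochondrial ATP for ion transport. Dicer cuts precursor hairpins into mature miRNAs, which lower the stability and translation of their target messages.

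Array medians lay between 7.47 and 7.54 in log2 units. The arrays correlated across probe sets at 0.996 to 0.998 within groups and 0.988 to 0.992 between them. Dicer1, the targeted gene, had log2 values of 9.80, 9.72 and 9.64 in mutant cells, against 10.31, 10.38 and 10.25 in control cells. Its mutant signal was thus 66.3% of the control signal (limma, adjusted p = 0.0005). All 10 ureteric markers checked lay above the median of all probe sets, 7.52. Of them, 6 were lower (60%) and 1 (Wnt9b) higher (10%) in mutant cells at an adjusted p of 0.05 in limma. Of all genes above that median, 20.3% were lower and 19.3% higher. The log2 summed signal of the 10 markers ranged from 14.86 to 14.89 in mutant arrays and from 15.01 to 15.07 in control arrays. Of 17 measured markers of other kidney cells, 4 lay above the median, and 2 were higher in mutant cells (11.8%) and 2 lower (11.8%). These are near the shares of all genes, 11.8% higher and 13.9% lower. The markers that were higher were Six2, of the cap mesenchyme (log2 fold change 3.29), and Lrp2, of the proximal tubule (1.05). The lower ones were Ptprc (-0.45) and Slc34a1, also of the proximal tubule (-0.69). Cited1, Eya1 and Gdnf, listed with Six2 as cap mesenchyme markers, did not pass (0.27, -0.05 and -0.15). The summed signal of the 17 markers, as log2 of the sum, ranged from 11.69 to 11.80 in mutant arrays and from 10.94 to 11.21 in control arrays. Without Six2 and Lrp2 it ranged from 10.65 to 10.82 in mutant arrays and from 10.71 to 10.98 in control arrays. The part of these markers in the results that follow was not tested.

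Genes of the mitochondrial ribosome were lower in Dicer mutant cells or did not pass the test, and 0 of 77 were higher. Of the 77, 41 fell, and 36 did not pass an adjusted p of 0.05 in limma, fitted and adjusted over all 19296 genes. Of all genes, 25.8% were called in either direction, 13.9% lower and 11.8% higher. Since 76 of the 77 gave a signal above the median, the closer comparison is with genes above it, of which 39.6% were called, 20.3% lower and 19.3% higher. Calls also went with signal within the 77. Of the 38 brighter genes 25 fell (median log2 fold change -0.26), and of the 39 dimmer ones 16 fell (-0.18). The falls were small. Their median fold was 1.32, only 3 reached 1.5-fold (Mrpl48, Mrps23 and Mrpl20), and 0 reached 2-fold. A gene that did not pass is not shown to be unchanged. In a bulk sample, fewer cells of a type and less RNA per cell cannot be told apart.

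The median log2 fold change of the 77 genes was -0.25, against -0.05 over all genes and -0.01 over genes above the median signal. Of the 77, 67 had a negative value and 10 a positive one. In 49 genes the 3 mutant arrays all lay below the 3 control arrays, and in 1 gene, Mrps31, all above. Over all genes the arrays were separated with the mutant below in 24.1% and above in 18.3%. Over genes above the median signal these shares were 32.2% and 30.3%. The shift was present on every array: the median of the 77 genes, each set to its own mean over the 6 arrays, was -0.14, -0.11 and -0.11 in mutant replicates 1 to 3, against 0.07, 0.09 and 0.17 in control replicates 1 to 3. With each array centred on its median, 35 genes were lower and 1 higher, and with quantile normalization 43 were lower and 0 higher. Of the 41 falls, 29 passed in all 13 fits run on other settings or fewer arrays, the one reported here included (19 large and 10 small subunit genes).

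**Figure D1:**
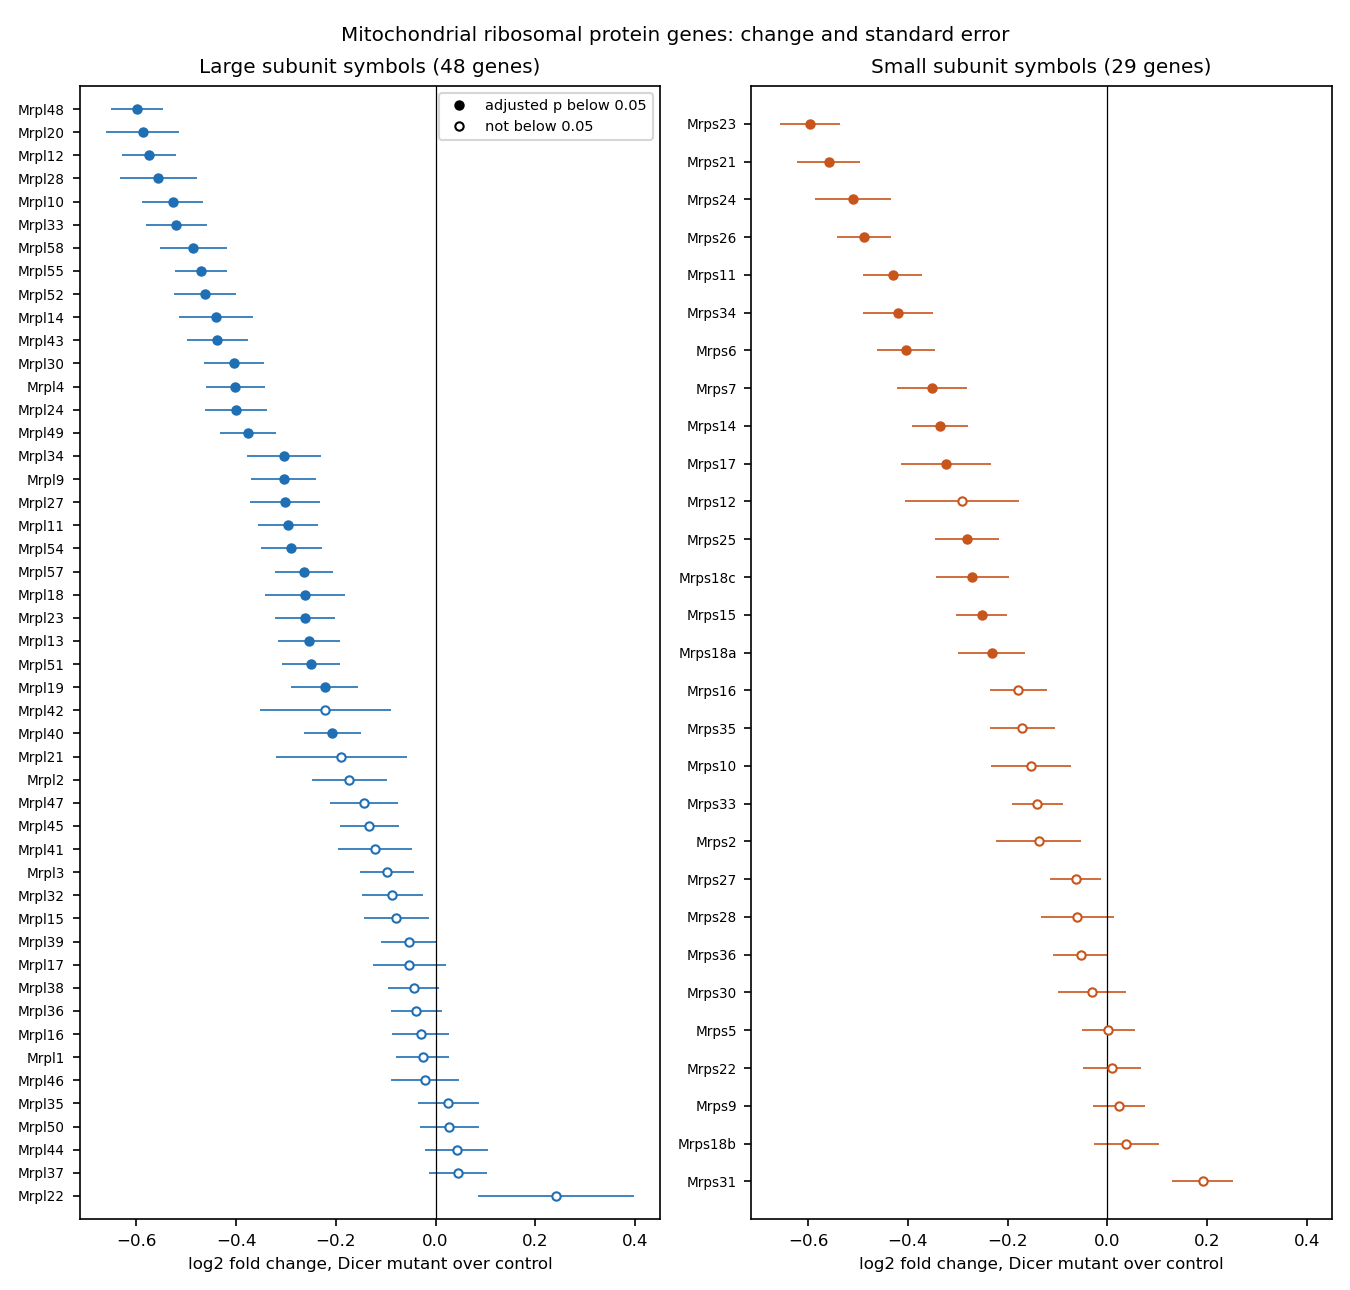
Log2 fold change of Dicer mutant over control cells (x axis) for each of the 48 large and 29 small subunit genes (rows, ordered by value), with bars of 1 standard error from limma, n = 3 arrays a group. Filled points passed an adjusted p of 0.05, and all 41 of them lie left of 0.

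**Figure D2:**
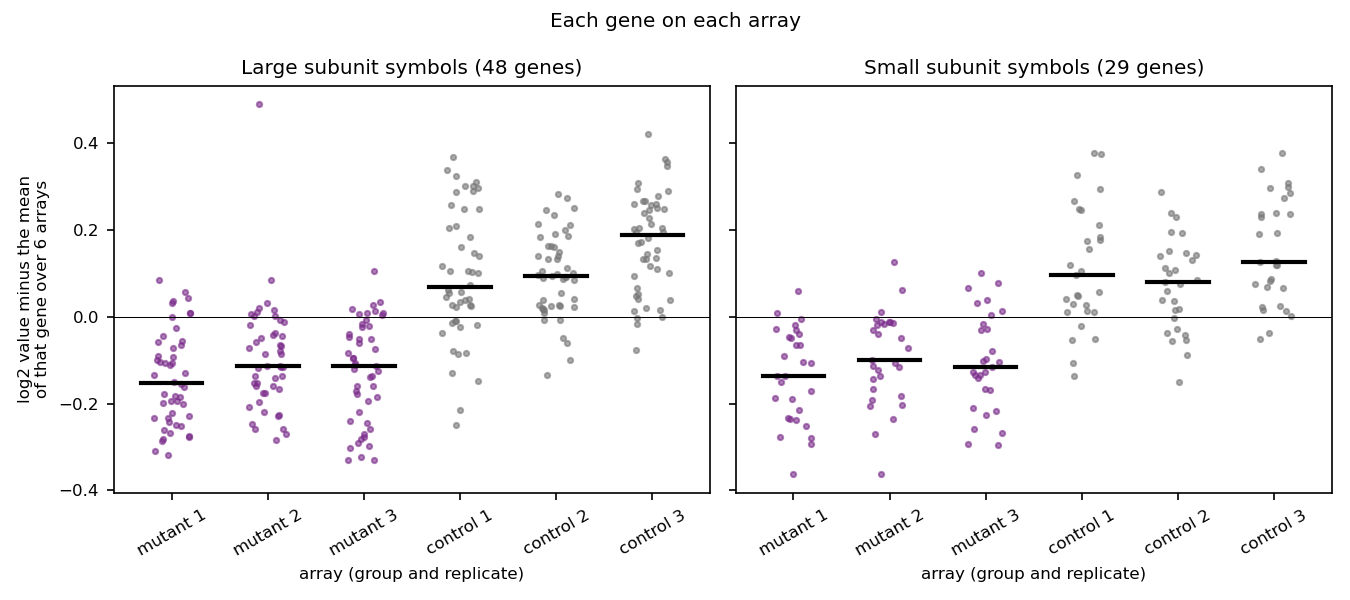
Log2 value of each gene minus its own mean over the 6 arrays (y axis), by array (x axis), for large and small subunit genes, with each array's median as a bar. The medians of mutant arrays lie below 0 and those of control arrays above it in both subunits.

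Both subunits took part, in shares that were close to each other. Of the 48 large subunit genes, 27 fell (56.2%) and 21 did not pass. Of the 29 small subunit genes, 14 fell (48.3%) and 15 did not pass. Neither subunit had a gene called higher. At an unadjusted p of 0.05 in limma, 0 large and 1 small subunit gene were higher, and 27 large and 18 small were lower. The small subunit then had the larger share of falls. This was also so with dim genes left out (27 large and 18 small) and with a variance trend and robust moderation (27 and 17). In the fit reported here, the median log2 fold changes were -0.25 for the large and -0.23 for the small subunit, a difference of -0.02. By array, the large subunit median stood at -0.15, -0.11 and -0.11 in mutant replicates 1 to 3 and at 0.07, 0.09 and 0.19 in control replicates 1 to 3. The small subunit median stood at -0.14, -0.10 and -0.12 in mutant replicates and at 0.10, 0.08 and 0.13 in control replicates. The difference between subunits was given no test. Its sign turned when genes were sorted by the place of the protein in the ribosome rather than by symbol (0.02).

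That sorting concerns 3 genes whose symbol does not match the structure. Mrps30 and Mrps18a encode proteins that sit in the large subunit, and Mrps36 is known as a component of the alpha-ketoglutarate dehydrogenase complex rather than of the ribosome. Mrps30 had a log2 fold change of -0.03 and Mrps36 of -0.05, and neither passed (adjusted p = 0.766 and 0.514). Placed by structure, 28 of 50 large and 13 of 26 small subunit genes fell. Proteins with a bacterial homologue and those found only in mitochondria both had members that fell. In the large subunit these were 19 of 31 with a homologue (median log2 fold change -0.26) and 9 of 19 without (-0.21). In the small subunit they were 9 of 17 with a homologue (-0.27) and 4 of 9 without (-0.17).

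Promoters of the mitochondrial ribosomal genes were searched for short motifs of factors known to act on genes of this kind. RefSeq windows from 250 bases before to 50 after the start (build GRCm38.p6) were at hand for 68 of the 77 genes, 74 windows in all since some genes have several starts, and a gene was counted once if any of its windows held the letters. The motifs, sought on both strands, were CCGGAAG (ETS factors such as GABP), GCATGCGC (NRF-1), AAGATGGC (YY1) and the E-box CACGTG. The ETS letters were found in 25 of the 68 genes (36.8%), against 21.8% of 7882 genes above the median signal and 9.93% of all 27025 genes with a window. NRF-1 letters were found in 11.8%, 6.67% and 3.05% of these sets, YY1 letters in 17.6%, 5.87% and 3.19%, and the E-box in 7.35%, 12.5% and 8.09%. A match to GCATGCGC on each strand overlaps in the palindrome GCGCATGCGC. Of 36 genes that fell and 32 that did not pass, the ETS letters were in 15 and 10, NRF-1 in 3 and 5, YY1 in 5 and 7, and the E-box in 2 and 3. A match describes the letters and is no evidence of binding.

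The windows that follow, the 250 bases before the start in lower case with the matches in capitals, show the same motifs before genes that fell (Mrpl33 and Mrpl34) and before genes that did not pass (Mrpl39 and Mrps22). They were picked after the values were seen.
Mrpl33, fell by 0.52, NRF-1 letters, chr5:31613701-31613950, plus strand: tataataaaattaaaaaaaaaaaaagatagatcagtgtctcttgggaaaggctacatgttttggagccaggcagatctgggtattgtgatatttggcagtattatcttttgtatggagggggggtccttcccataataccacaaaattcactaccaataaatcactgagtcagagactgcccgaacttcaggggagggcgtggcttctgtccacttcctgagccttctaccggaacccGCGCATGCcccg
Mrpl34, fell by 0.30, ETS letters, chr8:71464676-71464925, plus strand: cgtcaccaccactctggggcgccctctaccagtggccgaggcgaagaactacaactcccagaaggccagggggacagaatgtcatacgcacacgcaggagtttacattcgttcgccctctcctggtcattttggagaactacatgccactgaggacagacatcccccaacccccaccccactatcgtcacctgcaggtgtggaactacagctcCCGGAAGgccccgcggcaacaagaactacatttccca
Mrpl39, log2 fold change -0.05, NRF-1 letters on both strands, chr16:84735245-84735494, minus strand: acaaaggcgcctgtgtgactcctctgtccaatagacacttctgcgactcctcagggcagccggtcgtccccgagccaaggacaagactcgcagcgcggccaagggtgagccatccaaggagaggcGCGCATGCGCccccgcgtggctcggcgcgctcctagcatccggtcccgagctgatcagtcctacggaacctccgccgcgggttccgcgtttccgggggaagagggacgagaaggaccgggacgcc
Mrps22, log2 fold change 0.01, ETS letters, chr9:98601680-98601929, minus strand: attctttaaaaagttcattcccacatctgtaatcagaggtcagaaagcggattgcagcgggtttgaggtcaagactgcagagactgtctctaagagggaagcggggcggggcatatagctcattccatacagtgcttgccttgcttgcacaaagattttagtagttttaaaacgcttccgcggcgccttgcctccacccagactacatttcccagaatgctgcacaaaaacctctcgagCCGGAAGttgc
In Mrpl33 a CCGGAAG match also crosses the start and runs past the end of the window shown. The ETS letters stand close before the start in Mrps22, which did not pass, and in Mrpl34, which fell.

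In the large subunit, the genes Mrpl12, Mrpl10 and Mrpl11 fell. They encode proteins of the stalk and its base, and the stalk recruits translation factors to the ribosome. Mrpl12 encodes the stalk protein itself, the homologue of bacterial L7/L12. It had log2 values of 10.13, 10.21 and 10.15 in mutant cells, against 10.78, 10.70 and 10.75 in control cells. The groups did not overlap, at a log2 fold change of -0.58 ± 0.05 (standard error, limma, adjusted p = 0.000267). Mrpl10 anchors the stalk to the body of the subunit. Its values were 10.53, 10.54 and 10.45 in mutant cells, against 11.11, 10.96 and 11.03 in control cells (log2 fold change -0.53, adjusted p = 0.000711). Mrpl11, at the base of the stalk, stood at 10.16, 10.16 and 10.20 in mutant cells, against 10.42, 10.43 and 10.56 in control cells. Its fall was smaller, -0.30 on the log2 scale (adjusted p = 0.0084), and again without overlap.

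Mrpl48, Mrpl40, Mrpl38 and Mrpl46 encode proteins of the central protuberance, the upper part of the large subunit. These are not all the genes for this region, and Mrpl38 was picked after its value was seen. The fall of Mrpl48, a protein found only in mitochondria, was among the largest of the 77, with that of Mrps23 within its error. Its log2 values were 9.48, 9.53 and 9.46 in mutant cells, against 10.10, 10.07 and 10.10 in control cells, a log2 fold change of -0.60 (adjusted p = 0.000196). All 20 probe sets nearest in number to that of Mrpl48 belong to genes on a chromosome other than its own, and whether it reads the Mrpl48 message or a copy elsewhere was not tested. Mrpl40 had values of 10.93, 10.92 and 10.94 in mutant cells, against 11.07, 11.13 and 11.21 in control cells. That change of -0.21 passed (adjusted p = 0.0335) but was lost on leaving out any single array other than control replicate 1 (adjusted p up to 0.101), and with median centring (0.0711). Mrpl38 and Mrpl46, proteins of the same region, missed the threshold at -0.04 and -0.02 (adjusted p = 0.572 and 0.847).

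At the exit of the peptide tunnel, where the new chain meets the inner membrane, Mrpl23 and Mrpl24 fell and Mrpl45 did not pass. Not every gene for this region is described, and Mrpl24 and Mrpl45 were picked after their values were seen. Mrpl24 had values of 9.58, 9.62 and 9.54 in mutant cells, against 9.88, 10.03 and 10.02 in control cells (log2 fold change -0.40, adjusted p = 0.00262). Mrpl23 had 11.27, 11.22 and 11.24 in mutant cells, against 11.41, 11.56 and 11.55 in control cells (log2 fold change -0.26, adjusted p = 0.0149). The arrays of both genes were separated, with every mutant value lower. The Mrpl23 call was narrowly lost without control replicate 2 (adjusted p = 0.0504), mutant replicate 2 (0.0529) or mutant replicate 3 (0.0509). Mrpl45, which ties the ribosome to the membrane, and Mrpl44, which has a fold like that of RNase III, missed it at -0.13 and 0.04 (adjusted p = 0.143 and 0.666). Mrpl22, which lines the tunnel, stood at 8.09, 8.81 and 8.42 in mutant cells, against 8.17, 8.18 and 8.24 in control cells. Its mutant arrays lay on both sides of the control arrays, and the log2 fold change of 0.24 did not pass (adjusted p = 0.305). Without mutant replicate 1, Mrpl22 was called higher (log2 fold change 0.42, adjusted p = 0.0447), and without mutant replicate 2 its value was 0.06 (adjusted p = 0.75).

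Mrpl20, Mrpl28 and Mrpl33, homologues of bacterial proteins, also fell. Mrpl20 had values of 9.44, 9.42 and 9.38 in mutant cells, against 10.01, 9.87 and 10.13 in control cells (log2 fold change -0.59, adjusted p = 0.000969). Mrpl28 stood at 9.12, 9.14 and 9.12 in mutant cells, against 9.77, 9.52 and 9.76 in control cells (-0.56, adjusted p = 0.00156). The control arrays of both genes spread more widely than the mutant arrays, without reaching them. Mrpl33 was the single member below the median signal, with 7.02, 7.04 and 7.05 in mutant cells, against 7.50, 7.51 and 7.66 in control cells (-0.52, adjusted p = 0.000755). Mrpl58, a peptidyl-tRNA hydrolase that rescues stalled ribosomes and is built into the large subunit, fell by 0.49 on the log2 scale (adjusted p = 0.0015). Mrpl34 also fell, with 10.72, 10.82 and 10.72 in mutant cells, against 11.15, 10.92 and 11.10 in control cells (-0.30, adjusted p = 0.0186). Its call was lost without control replicate 1 (adjusted p = 0.0534), mutant replicate 1 (0.0704) or mutant replicate 3 (0.0653). Mrpl39 stood at 11.15, 11.05 and 11.07 in mutant cells, against 11.11, 11.15 and 11.17 in control cells, with overlapping groups and an adjusted p of 0.521. Mrpl47 missed the threshold at -0.14 (adjusted p = 0.172).

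In the small subunit, falls were among the largest in Mrps23, a protein found only in mitochondria, and Mrps21, a homologue of bacterial S21. Mrps23 had log2 values of 9.55, 9.43 and 9.49 in mutant cells, against 10.11, 10.02 and 10.13 in control cells. This is a log2 fold change of -0.60 ± 0.06 (standard error, adjusted p = 0.000388). Mrps21 stood at 9.93, 10.11 and 9.996 in mutant cells, against 10.53, 10.58 and 10.60 in control cells (-0.56, adjusted p = 0.000591). Both were separated by at least the whole spread within either group. Mrps24, the counterpart of bacterial S3 at the entry of the mRNA channel, fell by 0.51 on the log2 scale (adjusted p = 0.00225). Mrps26, a protein without a bacterial homologue, fell by 0.49 (adjusted p = 0.000544), with 7.92, 7.90 and 7.96 in mutant cells, against 8.44, 8.36 and 8.44 in control cells. Mrps7, Mrps6, Mrps11 and Mrps34 fell by between 0.35 and 0.43.

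Several small subunit genes did not pass. Mrps5, the homologue of bacterial S5, had values of 10.43, 10.40 and 10.47 in mutant cells, against 10.44, 10.40 and 10.46 in control cells. The group difference was 0.00 ± 0.05 (standard error, adjusted p = 0.986). Mrps22, mutated in a human mitochondrial disease, stood at 9.54, 9.58 and 9.67 in mutant cells, against 9.61, 9.55 and 9.61 in control cells (log2 fold change 0.01, standard error 0.06). Mrps12, which lies at the decoding centre, had 7.67, 7.93 and 7.80 in mutant cells, against 8.32, 8.06 and 7.89 in control cells. Mutant replicate 2 lay above control replicate 3, and the log2 fold change of -0.29 did not pass (adjusted p = 0.103). Leaving out 1 array moved it between -0.39 (without control replicate 3, called lower, adjusted p = 0.0331) and -0.18 (without control replicate 1, adjusted p = 0.246). Mrps31 was the gene whose mutant arrays all lay higher, with 9.02, 9.09 and 9.06 in mutant cells, against 8.82, 8.81 and 8.96 in control cells. Its log2 fold change of 0.19 missed the threshold (adjusted p = 0.0557). It was called higher without control replicate 3 (0.0263) and with each array centred on its median (0.0279).

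The Mrps18 genes are paralogues of bacterial S18 whose proteins occupy different places: that of Mrps18c in the small subunit where S18 sits, that of Mrps18b elsewhere in the small subunit and that of Mrps18a in the large subunit. Mrps18c had 9.48, 9.31 and 9.44 in mutant cells, against 9.59, 9.67 and 9.78 in control cells (log2 fold change -0.27, adjusted p = 0.0288). Mrps18a had 9.93, 9.95 and 9.97 in mutant cells, against 10.09, 10.15 and 10.30 in control cells (-0.23, adjusted p = 0.0374). Both were separated between groups, by narrow gaps. Mrps18b stood at 10.09, 10.12 and 10.18 in mutant cells, against 10.06, 10.03 and 10.20 in control cells, with full overlap (0.04, adjusted p = 0.704). The Mrps18a call was lost on leaving out any single array other than control replicate 1 (adjusted p up to 0.119). That of Mrps18c was lost without control replicate 2 or 3 or mutant replicate 2 or 3 (up to 0.0964). Both were also lost with median centring (0.0702 for Mrps18a and 0.06 for Mrps18c). The differences among the paralogues were not tested.

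Of the mitochondrial ribosomal proteins with other symbols, 4 had a probe set under the names searched. Chchd1 fell (log2 fold change -0.30, adjusted p = 0.0161), a call that was lost without mutant replicate 1 (0.0671). Dap3, Ptcd3 and Gadd45gip1 did not pass (-0.15, 0.18 and 0.01). Factors that assemble the ribosome fell in 6 of 21 measured genes (28.6%, against 20.3% of all genes above the median signal) and rose in 0, with a median of -0.10. Among them were the GTPases Noa1 (-0.29, adjusted p = 0.00514) and Mtg2 (-0.56, adjusted p = 0.00927), and the large subunit assembly factor Malsu1 (-0.31, adjusted p = 0.00827).

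Factors that act with the ribosome in translation moved both ways. Of 16, 4 fell (25%), 2 rose (12.5%) and 10 did not pass (median 0.02), against 20.3% lower and 19.3% higher among all genes above the median signal. The pair Slirp and Lrpprc, whose proteins bind each other and stabilise mitochondrial mRNAs, went in opposite directions. Slirp stood at -0.36 (adjusted p = 0.00264) and Lrpprc at 0.25 (adjusted p = 0.019). Taco1, an activator of cytochrome oxidase translation, fell by 0.23 (adjusted p = 0.0265), and the other gene that rose was Gfm2, a recycling factor (0.23, adjusted p = 0.028). The calls of Lrpprc, Taco1 and Gfm2 were lost without mutant replicate 3 (0.0655, 0.0858 and 0.0727) and without control replicate 2 (0.055, 0.0591 and 0.07). Without mutant replicate 2, Lrpprc (0.0656) and Gfm2 (0.0938) were not called, and without mutant replicate 1 or control replicate 1, Taco1 (0.11 and 0.0631) and Gfm2 (0.0548 and 0.076) were not. Taco1 was also not called without control replicate 3 (0.0524).

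Mitochondrial aminoacyl-tRNA synthetases, which charge the tRNAs of the organelle, fell in 4 of 16 genes (25%, near the 20.3% of all genes above the median signal) and rose in 0 (median -0.12). Hars2, for histidine, stood at -0.67 (adjusted p = 0.000372) and Cars2, for cysteine, at -0.40 (adjusted p = 0.00727). Ears2, for glutamate, fell by 0.25 (adjusted p = 0.0372). The Ears2 call was lost on leaving out any single array other than control replicate 2 (adjusted p up to 0.136) and with median centring (0.0566). Genes that transcribe and replicate mitochondrial DNA gave 0 calls of 8 in limma, against 39.6% called in either direction among all genes above the median signal. At an unadjusted p under 0.05 there were 2, Tfb2m and the topoisomerase Top1mt. The share of all genes at that level is not given here. Tfb2m, a transcription factor of the organelle, changed by 0.47 on the log2 scale without passing (adjusted p = 0.068), and control replicate 1 (9.17) lay below the other control arrays (both 9.82). Without that array the change was 0.26, and it passed (adjusted p = 0.0216). It was also called higher without control replicate 3 (0.58, adjusted p = 0.0384).

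Of 12 nuclear regulators of mitochondrial biogenesis, 3 rose (25%) and 1 fell (8.33%), against 19.3% higher and 20.3% lower among all genes above the median signal. The coactivators Ppargc1b (0.28, adjusted p = 0.00968) and Pprc1 (0.21, adjusted p = 0.0248) and the transcription factor Mycn (0.46, adjusted p = 0.00434) rose, and Myc fell by 0.34 (adjusted p = 0.0331). Nrf1, Gabpa and Yy1, which encode factors known to bind promoters of this kind, did not pass (-0.12, 0.12 and 0.06). The Myc call was lost without control replicate 2 (0.058) or mutant replicate 1, 2 or 3 (0.0997, 0.0971 and 0.0688) and with median centring (0.054). The Pprc1 call was lost on leaving out any single array other than control replicate 3 (up to 0.0828).

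In its share of genes called lower (41 of 77, 53.2%), the mitochondrial ribosome stood below the respiratory chain and above the cytosolic ribosome. Its median log2 fold change of -0.25 was near that of the respiratory chain. Among all genes above the median signal, 20.3% were called lower and 19.3% higher. Of 70 nuclear-encoded subunits of oxidative phosphorylation, 46 fell (65.7%) and 0 rose (median -0.26 on the log2 scale). The lowest p-values there were those of Sdhd, Uqcrq and Atp5e, with log2 fold changes of -0.74, -0.57 and -0.60. Of 53 cytosolic ribosomal protein genes, 9 fell (17.0%) and 0 rose, with a median of -0.11. Their values leaned the same way, with 47 of 53 negative, against 67 of the 77 mitochondrial ribosomal genes. In 26 of the 53 the mutant arrays all lay below the control arrays, and in 1 all above. Of the 77, these were 49 and 1. Among all genes above the median signal the shares were 32.2% and 30.3%. Rps21, Rpl23a and Rps15 fell by 0.37, 0.37 and 0.45 on the log2 scale. Rpl23a (adjusted p = 0.0922) and Rps15 (0.0504) were not called when the probe sets of a gene were averaged. Median log2 signals were 9.71 for the 77 genes, 10.90 for oxidative phosphorylation and 12.38 for the cytosolic ribosome. The differences between these lists, and the part of signal in them, were not tested. Cytosolic ribosomal genes have many near-identical copies in the genome, and how far shared probe sequence enters their fold changes was not tested.

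**Figure D3:**
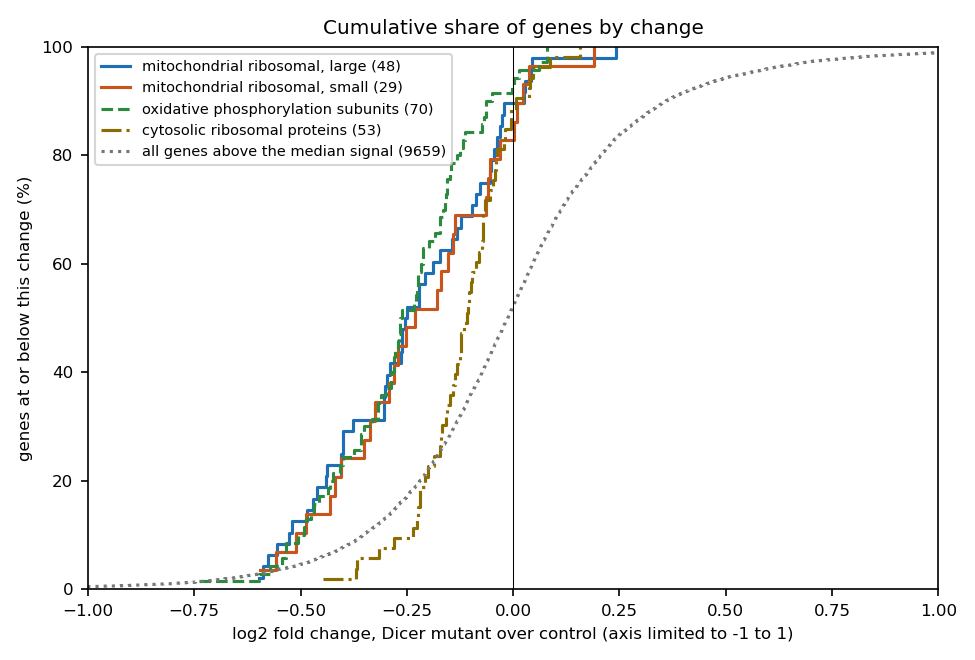
Share of genes at or below a given log2 fold change of Dicer mutant over control cells, for large and small subunit genes, oxidative phosphorylation subunits, cytosolic ribosomal proteins and all genes above the median signal, with the number of genes in parentheses. Both mitochondrial ribosomal curves run close to that of oxidative phosphorylation around its median of -0.26, and lie below it at smaller falls. The upper quartile is -0.16 for oxidative phosphorylation, -0.07 for the large and -0.06 for the small subunit. The curve of all genes crosses 50% near 0.

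**Figure D4:**
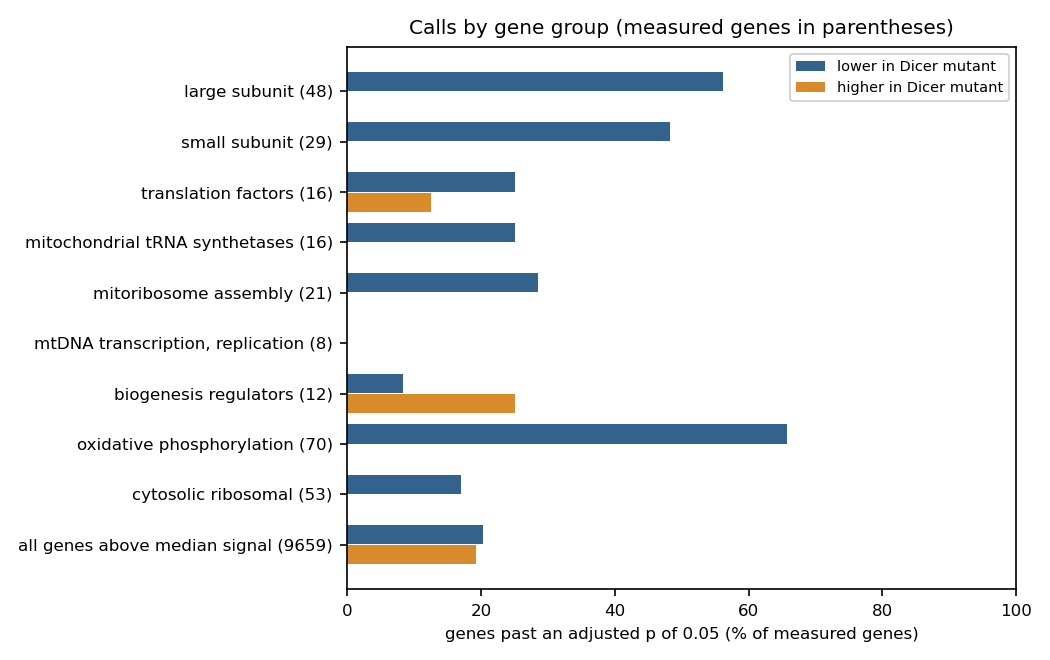
Percent of measured genes called lower (blue) and higher (orange) in Dicer mutant cells by gene group, at an adjusted p of 0.05 in limma over all genes. The large and small subunit groups reach 56.2% and 48.3% lower with 0 higher, against 20.3% lower and 19.3% higher among all genes above the median signal.

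Gene span, the genomic distance from start to end in RefSeq, moved with the calls among genes above the median signal. Mitochondrial ribosomal genes are short, with a median span of 7.75 kb, against 24.9 kb for genes above the median signal. Of those genes, the shortest of 4 equal bins (up to 10.7 kb) was called lower in 35.0% and higher in 7.95%, and the longest bin (over 58.0 kb) lower in 11.1% and higher in 33.2%. The median log2 fold change of the shortest bin was -0.14 and that of the longest 0.10. Of the 54 mitochondrial ribosomal genes in the shortest bin, 34 fell (63.0%), with a median of -0.28. Of 16 in the next bin, 5 fell (31.2%), against 20.8% of all genes there, and of the remaining 7, 2 fell. Within the 77 genes, the 41 that fell had a median span of 5.95 kb and the 36 that did not pass one of 9.40 kb. The part of gene span, and of what goes with it, in the falls was not tested.

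**Figure D5:**
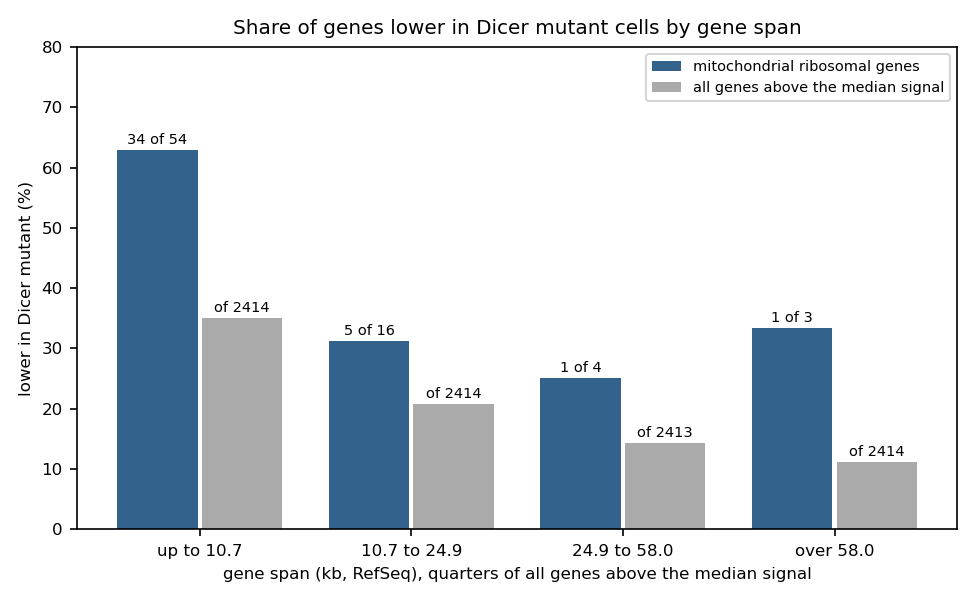
Percent of genes called lower in Dicer mutant cells, by 4 bins of gene span, for mitochondrial ribosomal genes (blue, with counts) and for all genes above the median signal (grey, with the number of genes). In the shortest bin 34 of 54 mitochondrial ribosomal genes fell (63.0%), against 35.0% of all genes there.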

How the data were processed

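Total RNA of sorted YFP+ ureteric bud cells from E15.5 mice was measured on 6 Affymetrix whole-transcript arrays, 3 per genotype. The deposited values are log2 expression per probe set, made by the authors with RMA in the affy package, per the submitters' processing notes, with tool versions and genome build not given in the sources used here. Because RMA corrects background, quantile-normalizes and summarises probes, a rise or fall shared by all genes would not show, and low signals are compressed. No scanner files were used.

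Probe sets with exactly 1 gene symbol in the platform annotation (20728 of 23309) were kept, and the one with the highest mean over the 6 arrays stood for each of 19296 genes. Genotypes were compared by a linear model with moderated variances (limma 3.58.1, R 4.3.3), which lent 3.93 prior degrees of freedom to each gene. Every adjusted p is from this limma fit, or the named alternative, with Benjamini-Hochberg adjustment over all genes and a threshold of 0.05. The fit was tested on simulated data. The precision is limited by 3 arrays a group, and the replicates are labelled biological without saying which embryos they came from, so p-values cover only the variation among these arrays. Python 3.11.15 and matplotlib 3.10.9 drew the figures.

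The members and gene lists were chosen with earlier results of these data known. Genes named are those with the 8 largest changes past the threshold in each direction, the 5 highest and 3 lowest signals, the 3 smallest changes, the Mrps18 paralogues, Mrps30, Mrps36, Mrpl11, Mrpl12, Mrpl44 and Mrps12, genes whose probe sets differ in direction, and up to 3 per other list by smallest p. Mrpl22, Mrpl24, Mrpl38, Mrpl45, Mrpl58, Mrps6, Mrps7, Mrps11, Mrps24, Mrps26, Mrps31 and some list genes were added after their values were seen, as were the description by gene span and the counting of motifs by gene in place of by window. Alternatives were quantile normalization, median centring, leaving out dim genes, averaging probe sets, a variance trend with robust moderation, a replicate block, leaving out each array, and sorting subunits by structure.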

Additional observations from a re-analysis of the deposited data

How the results depend on the processing

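No called gene among the 77 was called in the other direction under any setting run. Of the 77, 1 was called higher with median centring, with dim genes left out and with the variance trend, in each case Mrps31, so the small subunit count was also 1. Leaving out 1 array gave 31 to 40 lower genes and 0 to 1 higher (large subunit 0 to 1, small subunit 0 to 1). The small subunit median was -0.20 with centring, -0.26 by structure, and -0.25 to -0.18 with 1 array left out. The difference of large minus small subunit medians turned its sign by structure (0.020), and was -0.092 to -0.0081 with 1 array left out. The median of all genes was -0.017 with quantile normalization, -0.018 with centring and -0.014 without dim genes. The count of all genes called lower ran from 1764 (without Dicer mutant replicate 1) to 2973 with 1 array left out. With the replicate number as a block, 31 of the 77 were lower and 0 higher, all 31 among the 41. Same-numbered arrays of the groups did not deviate together (r = -0.19, -0.10 and -0.22), so the numbers are taken as names. Signals near background limit what RMA values can show of dim genes.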

Other observations

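Genes of protein import, by which ribosomal proteins reach the mitochondrion, were listed after the data had been seen. Of 23 genes with Tomm or Timm symbols, 12 fell and 0 rose (median -0.23 on the log2 scale). Of the 23, 21 lay above the median signal, and of all genes above it 20.3% were lower and 19.3% higher. Among the 12 that fell were Tomm5 (-0.88), Tomm40l (-0.61), Timm22 (-0.54) and Timm17b (-0.52). A list of 10 genes for mitochondrial chaperones and proteases, all above the median signal, was also made after the data had been seen. Of the 10, 1 fell (Phb2, -0.19) and 0 rose, with a median of 0.11. This is below the shares of 20.3% lower and 19.3% higher among all such genes. Hspd1 and Hspa9, the main folding chaperones of the matrix, had values of 0.17 and 0.16 and did not pass. The difference between these lists was not tested.

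The probe set shared by Mrpl53 and Ccdc142 had log2 values of 7.53, 7.66 and 7.73 in Dicer mutant cells, against 8.003, 7.97 and 7.90 in control cells. The groups did not overlap, and which gene carries the signal cannot be told apart. For Mrpl27, Mrpl51, Mrpl48, Mrpl41 and Mrps33, the probe set used is numbered among probe sets of genes on another chromosome. With another probe set of the gene, chosen after the data had been seen, the log2 fold changes moved as follows. Mrpl27 had -0.26 (limma, adjusted p = 0.0331), in place of -0.30 (0.0158). Mrpl51 had -0.07 (0.604) in place of -0.25 (0.0158), which ends its call. Mrpl41 had -0.24 (0.0411) in place of -0.12 (0.27), which makes it one. Mrps33 had -0.36 (0.126) in place of -0.14 (0.0803), passing with neither. Mrpl48 has no other probe set. The total of lower genes among the 77 was again 41.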
